A study of Mus musculus with 74 samples.

Results

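Vascular endothelial growth factors (VEGFs) and angiopoietins are the secreted ligands of the main receptor systems of vessel growth, and 10 of their genes were followed here from mammary primary tumor (PT) to lung metastasis (Lung met). The genes are the ligands Vegfa, Vegfb, Vegfc, Angpt1 and Angpt2 and the receptors Kdr, Flt1, Flt4, Nrp1 and Tek, and they were taken by gene name from each table. All 10 were named among the 18208 genes of FVB Her2, the 19320 of FVB C3Tag and the 17829 of a table deposited under AKR PyMT-F1. In BALB PyMT-F1 (17270 genes) and SEAGN PyMT-F1 (17351 genes) 9 of the 10 were named. No row carried the name Vegfa there, and 2671 and 2684 genes of these tables have no symbol.

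RNA was sequenced from PTs and Lung mets of female transgenic mice, 74 samples of 6 models in all. FVB Her2 and FVB Myc are FVB/NJ mice that carry the neu or Myc oncogene under the MMTV promoter, which is active in mammary epithelium, and FVB C3Tag mice carry the SV40 large T antigen under the C3(1) promoter. The PyMT-F1 mice are first-generation progeny of an FVB male with MMTV-driven polyoma middle T and a BALB/cJ, Sea/GnJ or AKR/J female. All groups carried an oncogene, ages were not used here, and tumor-free mammary gland or lung was not analysed. Each model had 6 PTs and 6 Lung mets by the labels, apart from 7 and 7 in FVB C3Tag. The study's own sample list holds more C3Tag PTs than the labels do, and which of them entered the C3Tag PT mean was not settled. The PTs of an animal were pooled into a single sample. In Her2, C3Tag and Myc, animals with a single lesion had it resected and were then aged further. The values are the authors' normalized mean per gene and tissue, so no value of a single animal, no spread between animals and no test stands behind the differences below, and the depth of each sample is unknown. A log2 value is always the log2 of the Lung met mean over the PT mean of 1 model, and a level is such a mean, or that mean divided by the gene's exon length in kb. FVB Myc was not analysed here.

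The strain of the table deposited under AKR is in doubt. Its quotients of Lung met over PT means match the list given in the study for BL6 progeny. The BALB and SEAGN tables match the lists of their own strains. No sample title names BL6, so which animals, and how many, stand behind the means of the table deposited under AKR was not settled. That table is called the AKR-named table. Its values are marked as such where given singly, while ranges, medians and counts over all 5 tables include them. The labels of the tissues were checked with marker genes. Of 6 alveolar type 1 genes, 5 or 6 were at least 2-fold higher in Lung met in every table, led by Ager or Clic5. Of 5 measured alveolar type 2 genes 4 or 5 were, with Lamp3 between 4.62 and 7.84 on the log2 scale. Aqp5 was the lowest type 1 gene in every table, and lower in Lung met in Her2 (log2 -0.13) and BALB (log2 -0.66). Abca3 was the lowest type 2 gene in every table, and lower in Lung met in Her2 (log2 -0.02) and the AKR-named table (log2 -0.21). The PT means of Lamp3 were low in BALB (3.12) and in SEAGN (3.70). The median log2 value of 8 or 9 mammary and tumor epithelial genes lay between -0.02 and 0.10. Krt19 was the highest of them in Her2 (log2 3.81) and in BALB (log2 1.23). Lung genes and genes of this epithelial list were thus both present in Lung met. Whether the latter came from tumor or from lung epithelium was not tested. In bulk tissue fewer cells of a type cannot be told apart from less RNA per cell.

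VEGF-A acts mainly through Kdr (VEGFR2), the chief signaling receptor of blood vessel endothelium, while Flt1 (VEGFR1) binds VEGF-A and VEGF-B tightly with weak kinase output and also exists as a soluble decoy. VEGF-C signals through Flt4 (VEGFR3), best known from lymphatic vessels, and Nrp1 is a co-receptor shared with semaphorins. Angiopoietin 1 activates the receptor Tie2, encoded by Tek, and steadies vessels, whereas angiopoietin 2, released by endothelial cells, can oppose it. Capillaries of the lung are rich in these receptors, and tumor cells commonly make VEGF-A.

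On GRCm38 (GENCODE M21) all 10 are protein-coding genes, spread over 7 chromosomes. Kdr (chr5:75932827-75978458) and Flt1 (chr5:147561604-147726011) lie on the same chromosome, as do Angpt2 (chr8:18690263-18741562), Vegfc (chr8:54077606-54187096) and Nrp1 (chr8:128358604-128503363). Tek is at chr4:94739289-94874976, Flt4 at chr11:49609263-49652739, Angpt1 at chr15:42424723-42676977, Vegfa at chr17:46016993-46032369 and Vegfb at chr19:6982473-6987651.

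The sequences 250 bases before the transcription start are shown for Tek and Kdr, which were compared as the receptors of the angiopoietin and the VEGF system, for Flt1 and for Vegfa, the most abundant ligand. They are from RefSeq on GRCm38.p6, where 8 of the 10 genes matched an entry and Angpt1 and Angpt2 did not. They were searched on both strands for ACGTG, the core of the hypoxia response element, and for AGGAAG and CCGGAA, cores bound by ETS factors, which do not overlap in these windows. Capitals mark the matches.
Tek, chr4:94739039-94739288, plus strand: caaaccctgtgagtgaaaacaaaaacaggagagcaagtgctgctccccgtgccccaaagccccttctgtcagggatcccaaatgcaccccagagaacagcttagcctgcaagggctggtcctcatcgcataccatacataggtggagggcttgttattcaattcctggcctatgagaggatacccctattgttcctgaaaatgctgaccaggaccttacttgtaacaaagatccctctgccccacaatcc
Kdr, chr5:75978456-75978705, minus strand: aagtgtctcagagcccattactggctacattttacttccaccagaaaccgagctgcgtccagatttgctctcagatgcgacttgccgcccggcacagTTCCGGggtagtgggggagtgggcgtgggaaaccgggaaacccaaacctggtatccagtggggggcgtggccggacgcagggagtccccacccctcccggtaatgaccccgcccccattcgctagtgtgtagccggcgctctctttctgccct
Flt1, chr5:147726012-147726261, minus strand: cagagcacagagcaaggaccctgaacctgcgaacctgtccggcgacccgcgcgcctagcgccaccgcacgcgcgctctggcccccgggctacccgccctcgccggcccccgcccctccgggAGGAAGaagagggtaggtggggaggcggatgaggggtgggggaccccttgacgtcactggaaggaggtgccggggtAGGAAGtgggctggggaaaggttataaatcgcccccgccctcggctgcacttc
Vegfa, chr17:46032378-46032627, minus strand: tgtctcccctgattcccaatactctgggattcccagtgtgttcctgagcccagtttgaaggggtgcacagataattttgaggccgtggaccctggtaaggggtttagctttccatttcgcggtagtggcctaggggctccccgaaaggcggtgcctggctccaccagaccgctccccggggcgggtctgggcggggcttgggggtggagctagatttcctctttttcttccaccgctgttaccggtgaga

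Among the 32851 promoters of the RefSeq table, 16.6% held ACGTG in the same window, 29.5% AGGAAG and 12.0% CCGGAA. Kdr held 1 CCGGAA, read on the other strand, and Flt1 held 2 AGGAAG. Nrp1, not shown, held 1 AGGAAG. The Tek and Vegfa windows above held none of the 3 motifs, while that of a second Vegfa start, at chr17:46025164-46025413, held 1 ACGTG. Vegfb, Vegfc and Flt4 held none. A match is a run of letters only, and no binding was measured. The Tek window stood apart in base composition, with 51.2% G and C and 2 CG pairs, against 61.6% and 16 in Kdr and 70.4% and 23 in Flt1.

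The receptors had higher means in Lung met than in PT in nearly all tables, while the ligands were divided. Of the 5 receptors, 5 were higher in Her2, C3Tag and the AKR-named table and 4 in BALB and in SEAGN, where Flt4 was the exception. Of the ligands 3 of 5 were higher in Her2 and in C3Tag, 2 of 4 in BALB and in SEAGN and 4 of 5 in the AKR-named table. Over all genes the share with a higher Lung met mean was 49.7% in Her2, 51.2% in C3Tag, 55.3% in BALB, 52.6% in SEAGN and 50.8% in the AKR-named table.

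**Figure D1:**
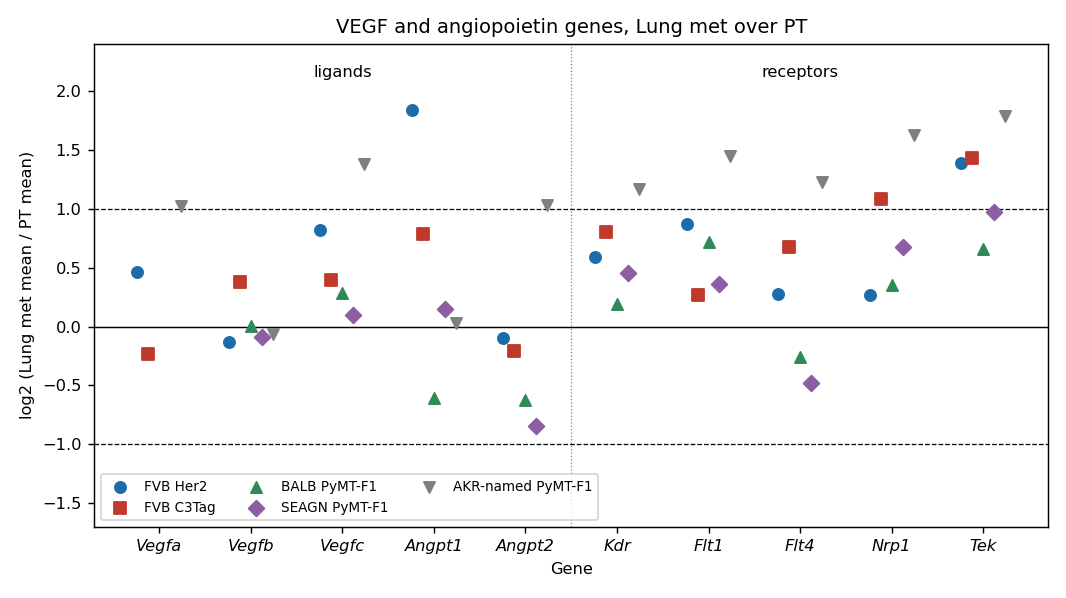
Log2 of the Lung met mean over the PT mean (vertical axis) for the 5 ligands and 5 receptors (horizontal axis), with 1 point per table and dashed lines at a 2-fold difference. Tek is above 0.65 in all 5 tables, and Angpt2 is below 0 in all but the AKR-named table.

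At a difference of at least 2-fold, 2 of 10 members were higher in Her2 (Angpt1 and Tek), where 2.38% of all genes were. In C3Tag 2 of 10 were higher (Tek and Nrp1), against 7.42% of all genes. None of 9 was higher by that measure in BALB, where 2.26% of genes were, or in SEAGN, where 2.86% were. By contrast 8 of 10 were in the AKR-named table, all but Vegfb and Angpt1, against 7.31% of all genes. No member was 2-fold lower in any table, where 1.43%, 1.7%, 2.4%, 3.22% and 1.73% of all genes were, in the order Her2, C3Tag, BALB, SEAGN and AKR-named. The AKR-named table thus held most of the 2-fold differences of the group, and without it 4 values passed 2-fold.

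Tek, the receptor of both angiopoietins, showed the largest difference of the receptors in 4 of the 5 tables. Its mean was 109 in PT and 286 in Lung met in Her2, a log2 value of 1.39. In C3Tag the means were 146 and 393, with a log2 value of 1.43. These values exceeded those of 98.6% and 95.8% of all genes in their tables. The PyMT-F1 tables gave the same direction with smaller values in BALB and SEAGN. Tek stood at 53.1 in PT and 83.9 in Lung met in BALB (log2 0.66) and at 58.0 and 114 in SEAGN (log2 0.97). In the AKR-named table it stood at 155 and 536 (log2 1.79). Of 12317 genes named in all 5 tables, 0.398% lay above Tek in each of them, and 0.447% of 12527 did so in the 4 tables without the AKR-named one.

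Kdr was higher in Lung met in every table, with smaller differences than Tek. The means in PT and Lung met were 668 and 1005 in Her2 (log2 0.59), 468 and 818 in C3Tag (log2 0.80) and 155 and 178 in BALB (log2 0.19). In SEAGN they were 167 and 229 (log2 0.46), and 308 and 694 in the AKR-named table (log2 1.17). A gene that is higher in all 5 tables is not rare, since 11.6% of the genes named in all of them were, and 16.9% were higher in the 4 tables without the AKR-named one. The median log2 value of Kdr over the tables was 0.59 with and 0.52 without the AKR-named table.

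Flt1, the high-affinity receptor, was also higher in all 5 tables. Its means were 463 and 848 in Her2 (log2 0.87), 343 and 564 in BALB (log2 0.72) and 356 and 458 in SEAGN (log2 0.36). In C3Tag Flt1 was at 2630 in PT and 3164 in Lung met (log2 0.27). Among the genes of its own table its PT mean exceeded 89.6% in C3Tag, 74.2% in SEAGN, 71.8% in BALB, 50.9% in Her2 and 44.0% in the AKR-named table. In the AKR-named table the means were 330 and 902 (log2 1.45). The tables do not separate the soluble from the membrane form.

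Nrp1, the co-receptor, was higher in Lung met in all 5 tables, with its largest values in C3Tag and the AKR-named table. The means were 695 and 1472 in C3Tag (log2 1.08), 284 and 454 in SEAGN (log2 0.68), 239 and 305 in BALB (log2 0.36) and 630 and 761 in Her2 (log2 0.27). They were 287 and 886 in the AKR-named table (log2 1.63).

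Flt4 was the only receptor that did not keep its direction over the tables. It was higher in C3Tag (255 and 408, log2 0.68), in Her2 (122 and 147, log2 0.28) and in the AKR-named table (80.6 and 189, log2 1.23). It was lower in BALB (85.1 and 71.2, log2 -0.26) and in SEAGN (83.0 and 59.4, log2 -0.48). These are also the tables with identifiers of a BALB/cJ annotation, so model and annotation cannot be told apart here. Vegfc, the ligand of Flt4, was higher in Lung met in all 5 tables. Its log2 values went from 0.10 in SEAGN to 1.38 in the AKR-named table, and up to 0.82 (Her2) without that table. Vegfc was the least abundant member without correction for length in each table, with PT means of 13.5 in BALB and 77.3 in C3Tag, so its values rest on the lowest means of the group. Of the genes that mark lymphatic endothelium, Lyve1 was at least 2-fold higher in all 5 tables (log2 1.77 to 3.48), while Prox1, the lymphatic master regulator, was the lowest of the measured genes in SEAGN (log2 -0.65) and in the AKR-named table (log2 -0.73). Mmrn1 was the lowest in BALB (log2 -0.59), and Reln in Her2 (log2 -1.23) and in C3Tag (log2 0.08). Ccl21a, named in the AKR-named table only, stood at 3.67 there. Of 4 to 6 measured genes of that list 1 to 4 were at least 2-fold higher, and its median log2 value was 0.62, 1.14, 0.33, 0.74 and 1.79 in the order of the tables.

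Vegfa was the most abundant member in every table that names it. Its mean was 4034 in PT and 5572 in Lung met in Her2 (log2 0.47), 8605 and 7306 in C3Tag (log2 -0.24) and 1860 and 3793 in the AKR-named table (log2 1.03). The direction thus differed between C3Tag and the others, and without the AKR-named table only 2 values remain, 1 in each direction. Vegfa stood above 98.6% of all genes in C3Tag PTs, 93.0% in Her2 PTs and 80.8% in PTs of the AKR-named table.

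Vegfb, a ligand of Flt1, had the narrowest range of log2 values over the 5 tables. Its log2 values were -0.13 in Her2, 0.38 in C3Tag, 0.01 in BALB, -0.08 in SEAGN and -0.06 in the AKR-named table.

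Angpt2 had a lower mean in Lung met in 4 of 5 tables. The means in PT and Lung met were 437 and 408 in Her2 (log2 -0.10), 399 and 346 in C3Tag (log2 -0.21), 72.1 and 46.9 in BALB (log2 -0.62) and 84.9 and 47.3 in SEAGN (log2 -0.84). The AKR-named table went the other way, with 85.8 and 175 (log2 1.03). The differences in Her2 and C3Tag are small, whereas 6.09% of all genes in BALB and 4.66% in SEAGN had a log2 value lower than that of Angpt2. Of the 12527 genes named in the first 4 tables, 9.12% were lower in all 4.

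Angpt1, made mainly by cells around vessels, varied most between the models. It was higher in Her2, from 209 to 745 (log2 1.84), the largest log2 value of any member, above 99.2% of all genes there. In C3Tag it was at 260 and 448 (log2 0.79). The PyMT-F1 tables did not share this, with 118 and 77.4 in BALB (log2 -0.60), 126 and 139 in SEAGN (log2 0.15) and 617 and 630 in the AKR-named table (log2 0.03). Of 8 pericyte genes, from cells that also make Angpt1, 1 or 2 were at least 2-fold higher in each table and none lower, and the median log2 value was 0.04, -0.06, 0.03, 0.28 and 0.20 in the order of the tables. Cox4i2, with low PT means of 7.55 in BALB and 4.15 in SEAGN, was the highest of them in every table but C3Tag. Higd1b was the highest there (log2 1.65). The lowest were Notch3 in Her2 and the AKR-named table (log2 -0.06 and -0.49), Cspg4 in C3Tag (log2 -0.68) and Rgs5 in BALB and SEAGN (log2 -0.44 and -0.77). Of 8 fibroblast genes, 7, 2, 6, 7 and 7 were at least 2-fold lower, with median log2 values of -1.49, -0.34, -1.75, -2.37 and -1.41, Lum and Thy1 among them in every table, while Pdgfra was the highest in each (log2 0.44 to 0.94). In C3Tag 3 of the 8 were higher, among them Dcn, a matrix proteoglycan (log2 0.75).

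**Figure D2:**
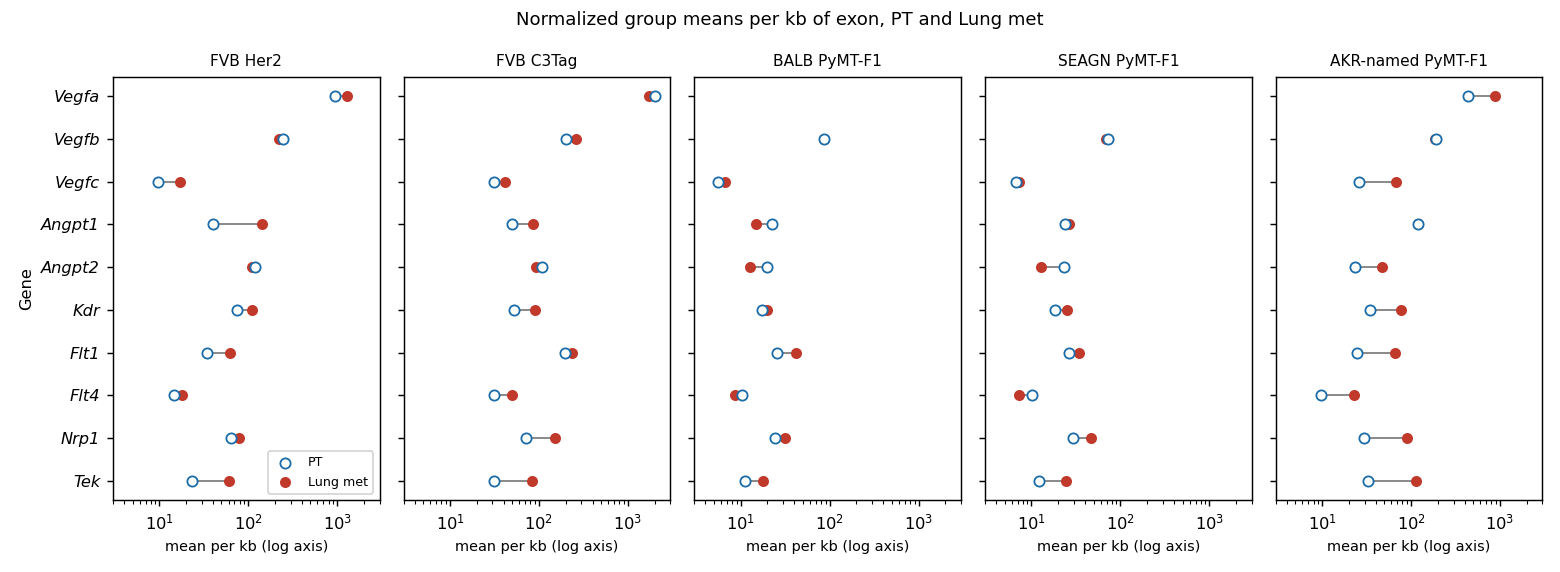
Authors' mean per kb of exon (horizontal log axis) for each gene (vertical axis) in PT (open points) and Lung met (filled points), with 1 panel per table and no Vegfa row in BALB and SEAGN. Vegfa is the most abundant member per kb in the 3 tables that name it, and Vegfb comes next to it.

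Per kb of exon, Vegfa led in both tissues of the 3 tables that name it, at 434 to 2008 in PT, and Vegfb followed at 193 to 246. In BALB and SEAGN Vegfb was the highest of the 9, at 86.7 and 72.6 in PT. Vegfc and Flt4 were at or near the foot of the order in Her2, BALB and SEAGN in both tissues. Among the receptors Flt1 led in both tissues of C3Tag (195 in PT and 234 in Lung met) and in Lung met of BALB (41.8), Nrp1 led in SEAGN (29.0 and 46.4), Kdr led in Her2 (74.0 and 111) and Tek led in Lung met of the AKR-named table (114). In C3Tag PTs Vegfc, Flt4 and Tek followed each other at 31.6, 31.0 and 31.0 per kb, Vegfb and Flt1 at 199.7 and 194.8, and Kdr and Angpt1 at 51.8 and 49.9, as did Flt1 and Nrp1 in BALB PTs at 25.4 and 24.4. These neighbours differed by less than 5%, and without a spread between animals no order can be given for them. The tables were normalized separately, so the levels of different tables cannot be set against each other.

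Set against each other, the median of the receptors exceeded that of the ligands in every table. The receptor medians were 0.59 in Her2, 0.80 in C3Tag, 0.36 in BALB, 0.46 in SEAGN and 1.45 in the AKR-named table. The ligand medians were 0.47, 0.38, -0.30, 0.01 and 1.03 in the same order, and the differences 0.12, 0.43, 0.65, 0.45 and 0.42. The median over all genes was within 0.03 of 0 in each table. Summed over all genes, the C3Tag means were 4.09e+07 in PT and 2.34e+07 in Lung met. The sums of PT and Lung met lay closer together in the other tables. The bearing of this gap on the C3Tag values was not tested. The ranges of ligands and receptors overlapped in all 5 tables. With 4 or 5 genes a side, the difference in Her2 turned with the choice of genes, being -0.033 for the VEGF system alone.

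The receptors were next set beside 14 pan-endothelial genes, such as Pecam1 and Cdh5, adhesion molecules of vessel walls. The summed means of these genes were higher in Lung met in every table, at 4622 and 6724 in Her2, 3927 and 9619 in C3Tag, 1331 and 1819.95 in BALB, 1469 and 2101 in SEAGN and 3260 and 11060 in the AKR-named table. None of the 14 was at 0. In the same order, 13, 13, 10, 10 and 14 of the 14 were higher in Lung met and the others lower. Over all genes 49.7%, 51.2%, 55.3%, 52.6% and 50.8% were higher. The number at least 2-fold higher was 1, 11, 2, 3 and 12 of 14, against 2.38%, 7.42%, 2.26%, 2.86% and 7.31% of all genes. The median log2 value was 0.63, 1.30, 0.56, 0.53 and 1.71. Cldn5, a tight junction gene, was the highest in each table. Mmrn2, a matrix gene, was the lowest in each (log2 -0.22, -0.16, -0.73, -0.66 and 0.15). The part of endothelial content in the receptor values was not tested.

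**Figure D3:**
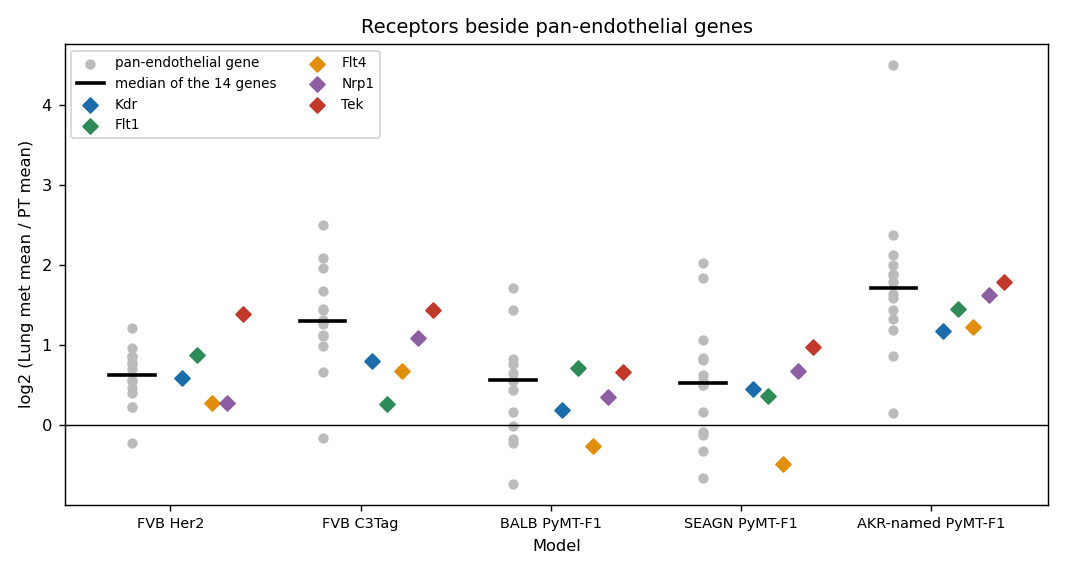
Log2 of the Lung met mean over the PT mean (vertical axis) by model (horizontal axis), with grey points for the 14 pan-endothelial genes, a black bar for their median and a diamond for each receptor. Tek lies above the bar in all 5 tables, while Kdr and Flt4 lie below it in all 5.

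Tek lay above the pan-endothelial median in all 5 tables, by 0.76 in Her2, 0.13 in C3Tag, 0.10 in BALB, 0.45 in SEAGN and 0.08 in the AKR-named table, on the log2 scale. Kdr lay below it in all 5, from -0.04 in Her2 to -0.54 in the AKR-named table. Flt4 was below it too, from -0.35 to -1.01, while Flt1 and Nrp1 lay on either side. Several of these distances, such as 0.08 for Tek or -0.04 for Kdr, are small beside the range of the 14 genes.

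The balance between the members within a tissue was described by ratios of their means, with gene pairs picked after the values were seen. Tek over Kdr, per kb, was higher in Lung met than in PT in all 5 tables. It went from 0.313 to 0.545 in Her2, from 0.597 to 0.922 in C3Tag and from 0.655 to 0.905 in BALB. In SEAGN it went from 0.665 to 0.951, and in the AKR-named table from 0.963 to 1.48. The log2 change of the ratio was thus between 0.47 (BALB) and 0.80 (Her2), a narrow range for tables whose Kdr values spanned 0.19 to 1.17. Of the genes named in all 5 tables, 1.24% lay above Kdr in each, and 1.501% did in the 4 tables without the AKR-named one.

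Angpt2 over its receptor Tek was lower in Lung met in all 5 tables. Per kb it went from 5.12 to 1.82 in Her2, from 3.49 to 1.12 in C3Tag and from 1.73 to 0.714 in BALB. In SEAGN it went from 1.87 to 0.531 and in the AKR-named table from 0.707 to 0.418. The log2 changes were -1.49, -1.64, -1.28, -1.82 and -0.76. In the AKR-named table both genes were higher in Lung met and Tek more so, so this ratio kept its direction there although Angpt2 itself did not.

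**Figure D4:**
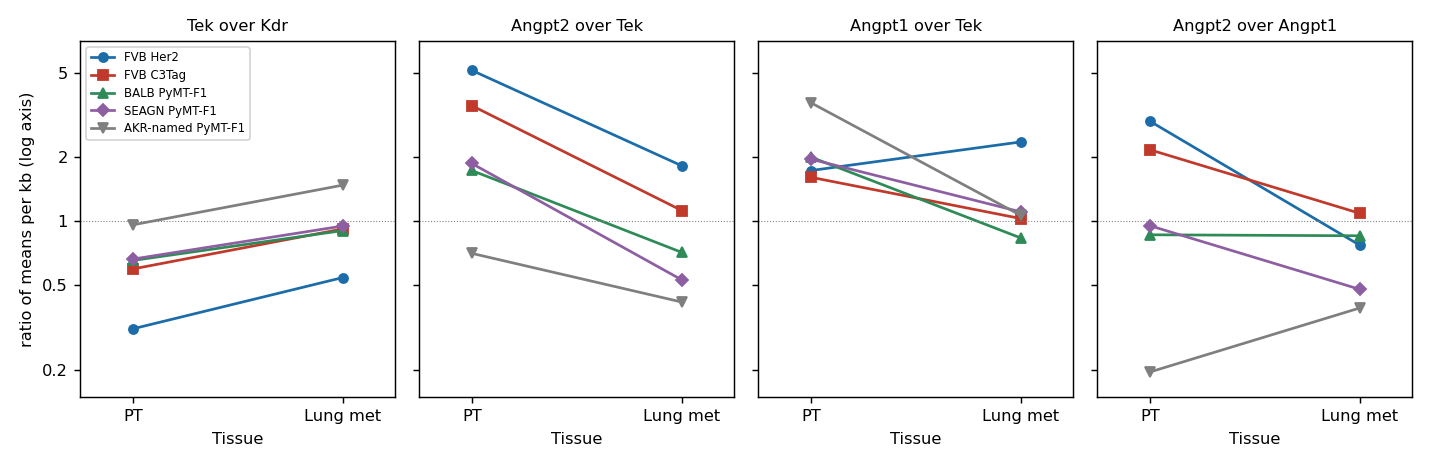
Ratios of the authors' means per kb (vertical log axis) in PT and Lung met (horizontal axis) for 4 gene pairs, with 1 line per table and a dotted line at 1. Tek over Kdr is higher and Angpt2 over Tek lower in Lung met in all 5 tables, while the other 2 ratios do not keep a direction.

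Angpt1 over Tek was lower in Lung met in 4 tables, with log2 changes from -0.64 (C3Tag) to -1.76 (AKR-named), and higher in Her2 (0.45). Angpt2 over Angpt1 was lower in Her2 (-1.94), C3Tag (-0.99) and SEAGN (-0.99), near level in BALB (-0.02) and higher in the AKR-named table (1.00). Per kb the ratio went from 2.95 in PT to 0.772 in Lung met of Her2, the table in which it crossed 1. It stayed above 1 in C3Tag (2.17 and 1.09) and below 1 in BALB (0.865 and 0.855), SEAGN (0.954 and 0.479) and the AKR-named table (0.196 and 0.392). Flt1 over Kdr set the models apart more than the tissues, at 3.76 in PT and 2.59 in Lung met of C3Tag against 0.463 and 0.564 in Her2, per kb. Vegfa over Kdr was lower in Lung met in the 3 tables that name Vegfa, with log2 changes of -0.12 in Her2, -1.04 in C3Tag and -0.14 in the AKR-named table. Vegfc over Flt4 was higher in 4 tables (0.16 to 0.58) and lower in C3Tag (-0.28).

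Other genes of the same pathways were more often higher than lower in Lung met. In the order of the tables, 7 of 11, 9 of 12, 7 of 10, 7 of 11 and 7 of 10 were higher. Over all genes 49.7%, 51.2%, 55.3%, 52.6% and 50.8% were, and with 10 to 12 genes a few decide such a count. Of 10 to 12 measured genes, 1, 4, 1, 1 and 6 were at least 2-fold higher and 1, 0, 1, 1 and 0 at least 2-fold lower. Over all genes 2.38%, 7.42%, 2.26%, 2.86% and 7.31% were 2-fold higher and 1.43%, 1.7%, 2.4%, 3.22% and 1.73% lower. The same shares stand beside the counts of the lists that follow. The median log2 values were 0.39, 0.66, 0.12, 0.26 and 1.10. Ptprb, the endothelial phosphatase VE-PTP that acts on Tie2, was the highest in each table and at least 2-fold higher in all of them. Its log2 values were 1.502, 2.39, 1.17, 1.54 and 2.17, above those of Tek in every table. Tie1, the orphan partner of Tie2, was higher in all 5 as well (log2 0.49, 1.46, 0.58, 0.65 and 1.44). Svep1, a matrix protein needed for lymphatic vessels, was lower in all 5 (log2 -0.67 to -1.69) and the lowest in 3. In Her2 Vegfd was the lowest (log2 -1.34) and in C3Tag Angpt4 (log2 -0.70).

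Genes of tip cells and of the response to VEGF did not all share a direction in any table. Of the 8 genes, 5, 7, 4, 3 and 7 were higher in Lung met. Of 8 genes, 0, 1, 0, 0 and 3 were at least 2-fold higher and 0, 0, 1, 1 and 0 lower, with median log2 values of 0.41, 0.44, 0.05, -0.24 and 0.91. Esm1, a tip cell gene induced by VEGF-A, was lowest in Her2 (-0.53) and BALB (-1.25), and Nid2 in SEAGN (-1.67) and the AKR-named table (-0.36). Apln, the ligand of the apelin receptor, was the highest in BALB (0.76) and SEAGN (0.68). Pgf, a ligand of Flt1 that is also in the list before, was the highest in Her2 (0.95) and the lowest in C3Tag (-0.28). Dll4 was the highest in C3Tag (1.15) and Plvap in the AKR-named table (2.60).

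Vegfa is a known target of the hypoxia response, so hypoxia genes were set beside it. Their median log2 value was 0.28 in Her2, -0.24 in C3Tag and 0.17 in the AKR-named table, where Vegfa stood at 0.47, -0.24 and 1.03. It was 0.44 in BALB and -0.37 in SEAGN. Of 11 or 12 genes, 0, 0, 1, 0 and 1 were at least 2-fold higher and 0, 2, 0, 2 and 0 lower. Car9, a carbonic anhydrase, was the lowest in C3Tag (-1.24), BALB (-0.89) and SEAGN (-1.84), with Adm the lowest in Her2 (-0.16) and Pdk1 in the AKR-named table (-0.37). Ankrd37 was the highest in the 3 PyMT-F1 tables (0.82 to 1.47), Ndrg1 in Her2 (0.82) and Bnip3 in C3Tag (0.21).

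Lung capillary genes did not move as a group, and of the 8 listed Car4 and Cyp1a1 gave no value. Of 6 measured, 2 or 3 were at least 2-fold higher in each table and 0, 0, 2, 2 and 0 lower, with median log2 values of -0.06, 0.60, 0.28, 0.52 and 1.13. Tbx2, a lung mesenchymal and capillary factor, was at least 2-fold higher in all 5 (1.42 to 3.20), while Ednrb, the endothelin receptor, was the lowest in 4 (-0.44 in Her2 to -2.15 in SEAGN). Fibin was the lowest (-0.39) and Hpgd the highest (3.37) in the AKR-named table. Gpihbp1 was higher in all 5 tables (0.49 to 2.21), and Fibin was lower in all 5 (-0.17 to -1.18). Kit was the most abundant of the list, at 18100 in PT and 18743 in Lung met of Her2 (log2 0.05). Its log2 values ran from -0.23 in C3Tag to 0.51 in SEAGN. In mammary PTs this signal cannot come from lung capillaries, so Kit was not a specific marker of them here. The macrophage genes had medians of 0.07, 0.43, 0.28, 0.49 and 0.31, with 0 or 1 of 4 or 5 at least 2-fold higher in each table. Chil3, a chitinase-like gene of alveolar macrophages, was named in Her2 and SEAGN, at log2 values of 5.83 and 5.80. These values rest on low PT means of 10.0 and 6.27.

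The genes whose log2 values lay closest to those of Kdr over the 5 tables, by Euclidean distance among 11920 genes with a mean of at least 10, were Rasgrp3 (0.265), Filip1l (0.267), St8sia4 (0.298), Steap2 (0.322) and Gcnt2 (0.330).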

How the data were processed

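RNA of PT and Lung met tissue was sequenced. The labels name a total RNA kit with ribosomal depletion, and the study's methods name mRNA libraries. Alignment, counting per gene and normalization were run by the authors in Partek Flow, with a normalization not given in the sources used here. For the PyMT-F1 crosses the authors compared Lung met and PT by DESeq2, and for the driver models by Gene Specific Analysis. The methods name mm9 and mm10, and the submitters' processing notes name mm39, STAR 2.7.8a and DESeq2. Identifiers of a BALB/cJ annotation stand in the BALB and SEAGN tables.

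The values used are the signal columns of the deposited tables, the authors' least-squares mean of normalized counts per tissue. Means that the table gives as unknown (116 rows in AKR-named, 93 in BALB, 53 in SEAGN and 1 in C3Tag) were left out. The p-values, FDR, ratios and fold changes of the authors' own comparisons were not used, nor was the FVB Myc table, which holds p-values and FDR. A test by limma had been planned for values per sample. The tables analysed hold group means, so none was run, and the precision of a mean is unknown. Where labels gave 2 strains for a PyMT-F1 sample, its title was followed.

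Log2 quotients of the means, without a pseudocount, were computed for every gene. A gene counted as higher or lower at 2-fold, and for the nearest genes a mean of at least 10 in a tissue was required. Symbols that occur more than once in a table were left out. Exon lengths and positions are from GENCODE M21 on GRCm38, also for the BALB/cJ annotation, and all exons of a gene were merged. The members and gene lists were chosen with earlier results of these data known. The named genes are the members, list genes at least 2-fold higher or lower in every table, otherwise the highest and lowest of a list, and the 5 nearest to Kdr. The genes nearest to Vegfa are not reported here. Tie1, Pecam1, Cdh5, Gpihbp1 and Kit and values of list genes in the other tables were added after they were seen. Only the 2-fold counting was checked on simulated means, with differences set in advance. That check covered no gene pair, gene list, nearest gene or promoter. Computations ran in Python 3.11.15 with pandas 2.3.3 and numpy 2.4.6, and figures in matplotlib 3.10.9. Tried besides were pseudocounts, a minimum mean, centring, other folds and other choices of genes.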

Additional observations from a re-analysis of the deposited data

How the results depend on the processing

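No paired analysis was possible because the tables analysed hold group means, although animals gave both tissues, and for the same reason no sample could be left out in turn. The values therefore carry no error between animals, and depth limits them to an unknown extent. With 1 or 10 added to both means, a minimum mean of 10 or centring on the median gene, the medians and differences of receptors and ligands moved by less than 0.1 on the log2 scale and the counts past 2-fold by less than 1.5 times. Values near 0 turned sign within that limit. The SEAGN ligand median was -0.0081 with 10 added and -0.0100 after centring, and Vegfb in BALB was -0.02 after centring. Of 48 single values of members 5 moved further with 10 added, none past 0. The pseudocounts for ratios of gene pairs and the median without Mmrn2 were chosen after seeing the data. With 10 added to all means, Angpt2 over Tek was -1.10 in BALB and -1.59 in SEAGN, and Angpt2 over Angpt1 was -0.87 in SEAGN and 0.02 in BALB, the latter turned from -0.02.

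At 1.5-fold, 5 members were higher in Her2 and in C3Tag, against 5.42% and 14% of all genes. In BALB 2 were higher and 2 lower, against 6.2% and 6.76% of all genes. In SEAGN 2 were higher and 1 lower, against 7.11% and 8.32%. At 3-fold, 1 was higher in Her2, 0 in C3Tag and 2 in the AKR-named table, against 1.11%, 3.52% and 3.31% of all genes. Without Flt4 the receptor median was 0.73 in Her2, 0.94 in C3Tag, 0.51 in BALB and 0.57 in SEAGN. The receptor minus ligand difference by means in place of medians was 0.63 in C3Tag, 0.57 in SEAGN and 0.77 in the AKR-named table. Without Nrp1 it was 0.26 in Her2 and 0.31 in the AKR-named table. In the VEGF system alone it was -0.033 in Her2, the only reversed difference, 0.13 in BALB and 0.31 in the AKR-named table. Without division by length, the log2 of Flt1 over Kdr in PTs of the AKR-named table was 0.10 in place of -0.48. With a minimum mean of 50, all 5 genes nearest to Kdr stayed. Leaving Mmrn2 out of the pan-endothelial median moved no distance of Tek or Kdr by 0.1.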
